A study of Mus musculus with 3 samples.

Results

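The crystallins described here were 8 of the 32285 genes named in the count tables, matched by symbol: the alpha crystallins Cryaa and Cryab, the beta crystallins Cryba1, Cryba2, Crybb2 and Crybb3, the gamma crystallin Crygs, and mu-crystallin, Crym. They were chosen by their UMI counts in these same libraries, both across retinal cell classes and in a set of adult droplets packed with crystallin transcripts. Their levels by class and age are therefore a description, and no test is attached to them. The 3 libraries came from retinas of C57BL/6JRj mice: a young one at 3 months, an adult one at 12 months and an old one at 23 months of age. At each age 4 retinas from 2 animals were pooled into 1 library, after digestion and magnetic enrichment for cells bearing CD31, a surface protein of endothelium. The libraries were made with droplet-based 3′ single-cell RNA sequencing, which counts transcript ends as unique molecular identifiers (UMIs). With 1 pooled library per age, age and library cannot be told apart, and every interval below covers counting error only.

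Crystallins are the bulk soluble proteins of the vertebrate lens. The alpha crystallins are small heat shock proteins that hold unfolding proteins in solution, and Cryab is also made outside the lens, in glia and in muscle. The beta and gamma crystallins share a fold of their own and are best known as structural proteins of lens fibre cells, although several have been found in retina. Crym shares only the name: it is an enzyme that binds thyroid hormone and was first met in the lenses of marsupials.

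The libraries held 2491 young, 3243 adult and 2751 old barcodes with between 16577026 and 19977238 UMIs each, and 1706, 1957 and 1697 cells were kept after limits on gene number, mitochondrial share and doublets. Cells were clustered without the crystallins among the features, and 8 classes with at least 30 cells in every library were compared: Müller glia, rods, cones, bipolar cells, endothelium, pericytes, smooth muscle and a mixed class that carried endothelial and pericyte markers together. The mixed class had a median of 13658, 14966.5 and 14744 UMIs in the young, adult and old library. Endothelium had 5642, 5992 and 7474, and pericytes 4011, 3972 and 4697.5. Whether droplets of the mixed class hold joined cells was not tested. Neurons and Müller glia are cells carried through the CD31 enrichment, so class sizes are not proportions of the retina. Of the barcodes deposited, 1 young, 4 adult and 3 old ones also occurred in another library, and none of these was a crystallin-rich droplet. Levels are given as CPM, the UMIs of a gene relative to all UMIs of the class on the usual sequencing scale, with a single count per transcript end and no division by transcript length.

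Cryab was the most abundant member in retinal cells, and among the 8 classes its level was highest in Müller glia, the radial glia that span the retina. There it stood at 1017 CPM in the young library, 1255.2 in the adult and 1383.1 in the old, from 1692, 2491 and 2179 UMIs. The adult-to-young ratio was 1.23 (exact 95% interval 1.16 to 1.31) and the old-to-young ratio 1.36 (1.28 to 1.45). Both intervals lay above 1, and both ratios stayed under the 1.5-fold mark used to call a gene in these comparisons. The 8 rod markers, all detected in these Müller cells, summed to 566.8, 1512.2 and 1207.2 CPM, lowest in the young library as Cryab was. Smooth muscle markers were also lowest there, at 23.4, 40.3 and 37.4 CPM. Pericyte markers were highest in the young library, at 152.1, 104.8 and 97.7 CPM, and endothelial markers were at 679.2, 634.9 and 693.7. The part of RNA from other cells in the difference was not tested.

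The higher level in the old library was not shared evenly by the cells of the class. The median Müller cell carried Cryab at 847.4 CPM in the young library, 1070 in the adult and 951.4 in the old, so on the median the adult library was highest. At the 90th percentile of cells the values were 1928.1, 2168.6 and 2617, and at the 25th they were 381.1, 602 and 236.9. The old library thus had the widest range between these percentiles. At the 10th percentile the young and old values were both 0 and the adult 57.6. Its Müller cells were also the shallowest, with a median of 6620 UMIs against 9144 and 9189.

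Depth was examined beside this. Cells with under 8375.5 UMIs, the median of the class, gave 786, 1032 and 959.3 CPM of Cryab from young to old, and cells at or over it gave 1093.7, 1320.5 and 1550.5. The old-to-young ratio was 1.22 (1.05 to 1.41) in the shallower cells and 1.42 (1.32 to 1.52) in the deeper ones. With each cell thinned to 2000 UMIs it was 1.16, and with each cell weighted equally 1.2. The share of Müller cells with at least 1 Cryab UMI was 87%, 89.9% and 78.1%, and after thinning 77.5%, 77.7% and 74.4%, with 12, 26 and 43 shallower cells left out.

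Müller glia fell into 2 clusters, which differed in Cryab. In that cluster, led by Rlbp1, a retinoid-binding protein of Müller glia, with Crym also among its 10 leading genes, Cryab stood at 1102.9, 1338.5 and 1535 CPM in 153, 194 and 168 cells. In the smaller and shallower one, with 32, 34 and 47 cells, it stood at 196.6, 338.8 and 190.9 CPM, and the old-to-young ratio was 0.971 (0.579 to 1.63). The smaller cluster held more old cells than young or adult ones, and its adult-to-young ratio of 1.72 (1.09 to 2.77) was above that of the class.

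**Figure D1:**
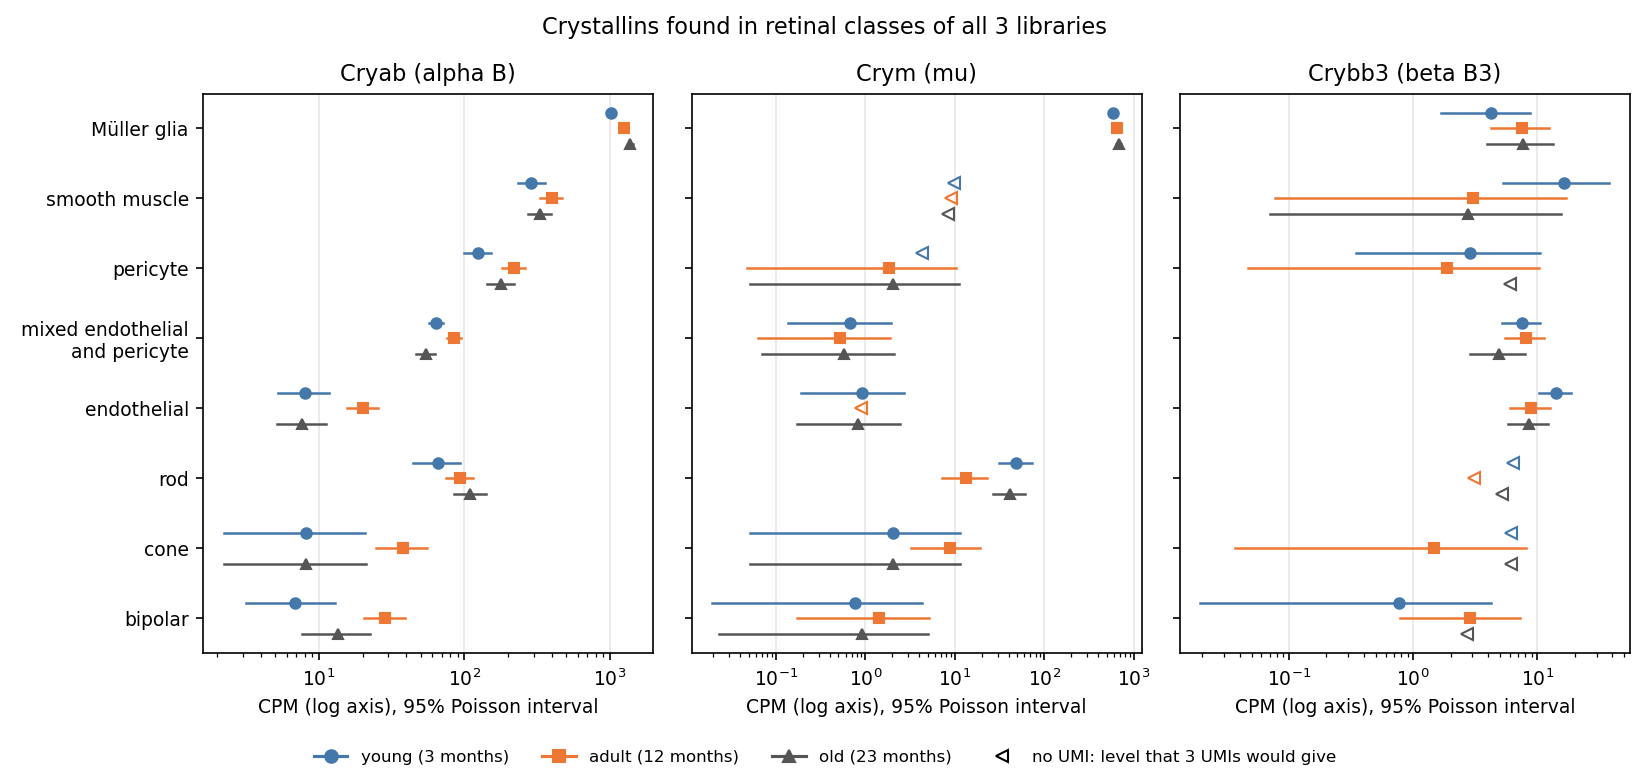
Levels of Cryab, Crym and Crybb3 (CPM, log axes) by cell class in the young, adult and old library; bars are exact 95% Poisson intervals and open triangles mark classes with no UMI, drawn at the level 3 UMIs would give. Cryab runs from above 1000 CPM in Müller glia to 6.86 in young bipolar cells, Crym is high in Müller glia alone among the 8 classes, and Crybb3 stays under 20 CPM.

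Of the 8 classes, the mural cells of the vessels came next. In smooth muscle, the contractile coat of arterioles, Cryab was at 289.3, 398.3 and 328.6 CPM in the young, adult and old library. In pericytes, which wrap capillaries, it was at 123.5, 219.2 and 178.4 CPM, an adult-to-young ratio of 1.78 (1.33 to 2.37) and an old-to-young ratio of 1.45 (1.06 to 1.97). The 3 values of smooth muscle lay above all 3 of pericytes, and both classes were lowest in the young library and highest in the adult. In the pericytes the 6 smooth muscle markers moved the same way, with 5 of 6 detected in each library at a summed 3035.2, 4682.9 and 4374.9 CPM and Cnn1 at 0 throughout. Their part in the Cryab difference was not tested. With each cell assigned from its own markers instead of its cluster, the adult-to-young ratio in pericytes was 1.41 and the old-to-young ratio 1.09.

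Neurons and endothelium carried less. Rods held Cryab at 65.7, 92.7 and 110.1 CPM, overlapping the mixed endothelial and pericyte class at 63.9, 84.9 and 54.3. Bipolar cells held 6.86, 28.5 and 13.6 CPM, cones 8.14, 38 and 8.19, and endothelium 7.96, 20.1 and 7.7. The last 3 classes could not be ordered, since their ranges overlapped, but each had its highest value in the adult library. The adult-to-young ratio was 4.16 (1.99 to 9.74) in bipolar cells, 4.67 (1.62 to 18.4) in cones and 2.53 (1.59 to 4.14) in endothelium. Some marker lists of other cells were highest in the adult library in these classes, and others were not. Müller markers in cones summed to 50.8, 150.6 and 67.6 CPM, with 3, 7 and 7 of 8 detected and S100b at 0 in the young and adult library. Endothelial markers in cones were lowest in the adult, at 42.7, 21.9 and 26.6 CPM. Pericyte markers in bipolar cells summed to 28.2, 114.7 and 35.4 CPM, with 7, 8 and 4 of 8 detected and Cspg4 at 0 except in the adult. Müller markers in bipolar cells were highest in the old library, at 95.2, 115.4 and 132.6 CPM. Endothelial markers there were highest in the young, at 121.1, 89.1 and 65.4, and rod markers were at 312.3, 312.1 and 274.3. The part of RNA from other cells was not tested.

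Cryab in barcodes with under 500 genes was also most abundant in the adult library. These barcodes were taken here as a measure of RNA free in the suspension. They numbered 523, 883 and 680 in the young, adult and old library, with 708705, 1215321 and 899699 UMIs. Whether some of them are damaged or small cells was not tested. Adult ones carried 283.9 CPM of Cryab, against 22.6 in the young library and 53.4 in the old. B cell-like immune cells, which should lack crystallins, held 7 Cryab UMIs in 77 adult cells (22.2 CPM) and none in 10 young and 57 old cells. Adult endothelium, with a UMI in 14.8% of cells at a median of 5992 UMIs, stood at 20.1 CPM, no higher than the B cell-like cells, where 9.09% of cells had one at a median of 3821. After subtraction of free RNA estimated from the barcodes under 500 genes, the adult-to-young ratio in endothelium was 0.935. With cells that also carried markers of another class left out, it was 10.9, from a young level of 1.82 CPM. The part of free RNA in the endothelial Cryab was not tested, and the direction of its ratio depends on how such counts are treated.

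In rods the Cryab ratio was 1.41 (0.929 to 2.2) for adult against young and 1.68 (1.08 to 2.66) for old against young. Markers of Müller glia were found in the same rods, 7, 7 and 8 of 8 with UMIs, at a summed 337, 155.6 and 514.5 CPM in the young, adult and old library. Only S100b in the young library and Kcnj10 in the adult were at 0. The part of Müller RNA in the rod values was not tested. With each cell assigned from its own markers, the rod ratios were 2.62 and 2.37, and with free RNA subtracted the adult-to-young ratio was 1.06.

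Cryab lies at chr9:50751325-50756636 on the plus strand of GRCm38, head to head with Hspb2, another small heat shock protein gene, at chr9:50751078-50752354 on the minus strand. The genes share 1030 bases, but their 3′ ends, where this assay counts, lie 5558 bases apart. Since the strand setting of the counting is not given in the sources used here, reads within the shared bases could have gone to either gene. The pair divided differently by class. In smooth muscle Hspb2 made up 47%, 45.2% and 44.6% of the summed Hspb2 and Cryab UMIs in the young, adult and old library. Pericytes had 37.7%, 31.4% and 35.5%. Müller glia had 0.704%, 1.42% and 0.864%, and rods 3.12%, 1.1% and 1.54%. Hspb2 thus stood within reach of Cryab in mural cells and far below it in Müller glia at every age, where it was at 7.21, 18.1 and 12.1 CPM from 12, 36 and 19 UMIs.

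**Figure D2:**
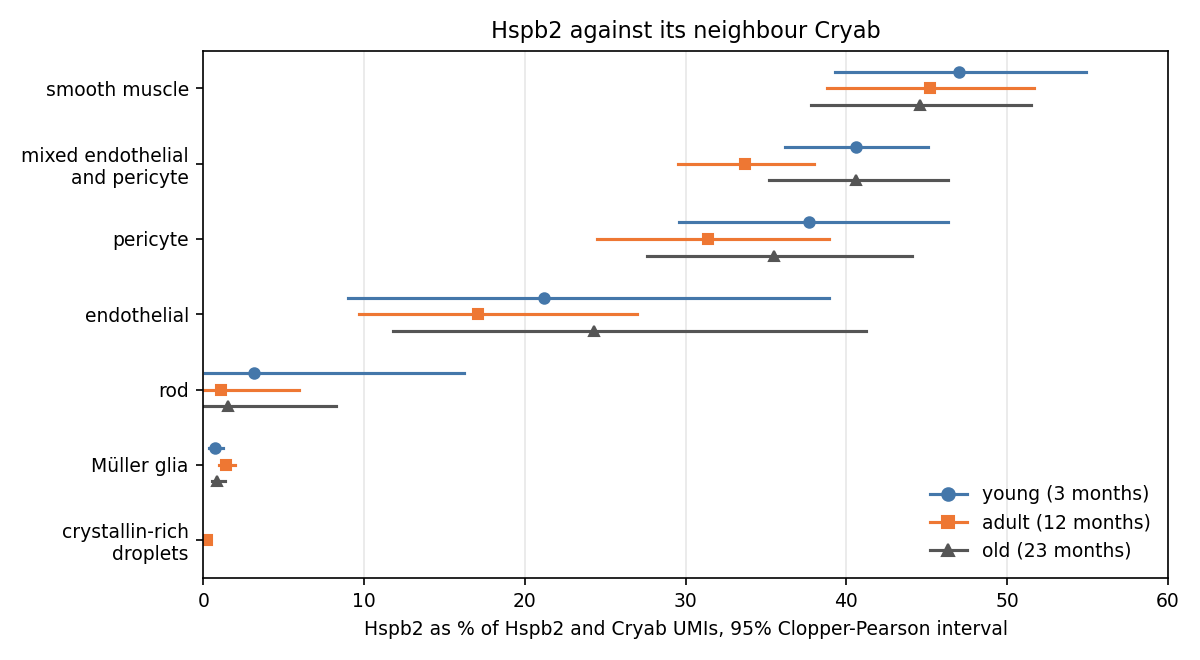
Hspb2 UMIs as a percentage of the summed Hspb2 and Cryab UMIs by class in each library, with exact 95% Clopper-Pearson intervals. Smooth muscle lies between 44.6% and 47%, pericytes between 31.4% and 37.7%, and Müller glia at or under 1.42% in all 3 libraries.

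The other small heat shock proteins had other homes. Hspb1, an actin-associated chaperone, was highest in smooth muscle at 1004.6 to 1186.3 CPM over the 3 libraries and in endothelium at 858.7 to 985.1, where Cryab was near its lowest. In Müller glia it was at 42.5 to 60 CPM. Hspb6, a muscle chaperone, was at 231.9 to 329.7 CPM in cones and 67.8 to 106.1 in rods. No other gene of the 7 listed small heat shock proteins shared the Müller peak of Cryab. By likeness over the 24 values of class and library, the nearest genes to Cryab were Pawr (Pearson r = 0.95 of log2(CPM + 10)), Rgs6 (0.94) and Ndrg2 (0.93). The 24 points share libraries and depth, and the correlations are descriptive.

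The thyroid hormone-binding enzyme Crym lies at chr7:120186380-120202111 on the minus strand, and its transcripts were concentrated in Müller glia. Levels there were 585.4, 652.5 and 680.4 CPM in the young, adult and old library, from 974, 1295 and 1072 UMIs. The ratios to young were 1.11 (1.02 to 1.21) for the adult library and 1.16 (1.06 to 1.27) for the old. The share of Müller cells with a Crym UMI was 80%, 84.6% and 81.4%. By depth, Crym was at 622.1, 620.6 and 665.7 CPM in shallower cells and 573.3, 661.9 and 686.2 in deeper ones. By cluster it was at 627.5, 687.6 and 737.8 CPM in the larger Müller cluster and 183.9, 266.2 and 230.2 in the smaller, lower there as Cryab was. Under stricter limits on cells the adult-to-young ratio was 0.968, so its direction is not secure.

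Outside Müller glia Crym was found mainly in rods, at 48.8, 13.4 and 41.3 CPM from 23, 13 and 24 UMIs. Barcodes under 500 genes held Crym at 9.88, 10.7 and 31.1 CPM, and the adult and old rods were close to these. In rods the adult level was the lowest, with an adult-to-young ratio of 0.275 (0.128 to 0.566). The summed Müller markers in rods given above were likewise lowest in the adult library, and their part was not tested. When cells were assigned from their own markers the adult-to-young ratio was 0.989, and under stricter limits the old-to-young ratio, 0.847 (0.458 to 1.57) as measured, was 2.57. Cones held 2.03, 8.77 and 2.05 CPM from 1, 6 and 1 UMIs. In bipolar cells, endothelium, pericytes and the mixed class Crym was at or under 2.01 CPM, and smooth muscle gave no UMI in any library. The genes most like it were Espn, Spc25 and Rlbp1, each at r = 0.99 over 24 values. Espn encodes an actin-bundling protein, Spc25 a kinetochore protein and Rlbp1 the retinoid carrier named above. Of 6 listed genes of thyroid hormone handling, 5 were measured in Müller glia, Thra, Thrb, Dio2 and Slco1c1 among them, and none passed 1.5-fold in either comparison.

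Among the beta and gamma members only Crybb3 had steady counts in ordinary cells. In endothelium it was at 14.1, 8.88 and 8.53 CPM in the young, adult and old library, from 46, 30 and 31 UMIs. In the mixed endothelial and pericyte class it was at 7.54, 8.05 and 4.94 CPM from 34, 31 and 17 UMIs. In Müller glia it was at 4.21, 7.56 and 7.62 CPM from 7, 15 and 12 UMIs. Rods gave no Crybb3 UMI in any library. B cell-like cells gave none in 77 adult and 57 old cells, where 0 would still permit 4.68% and 6.27% of cells with one.

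The endothelial level of Crybb3 was lower in both later libraries. The adult-to-young ratio was 0.631 (0.384 to 1.02) and the old-to-young ratio 0.605 (0.371 to 0.975). The share of endothelial cells with a Crybb3 UMI was 8.72%, 6% and 6.86%, and after thinning 2.31%, 1.24% and 1.99%. On thinned counts, where few UMIs remain, the adult-to-young ratio was 0.781 and the old-to-young ratio 0.977. Barcodes under 500 genes carried Crybb3 at 0, 11.5 and 0 CPM in the young, adult and old library. The young value of 0 allows up to 4.23 CPM, and the part of free RNA in the endothelial level was not tested. The nearest genes to Crybb3 were Lancl3 (r = 0.87), Tmem64 (0.86) and Pim1 (0.85).

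A gene was called past the fold when its ratio was at least 1.5 or at most its inverse and it had 50 or more UMIs in the class. Of all genes tested for adult against young, 10.8% were called in Müller glia, 8.38% in bipolar cells, 6.53% in endothelium, 5.4% in the mixed class, 12.3% in pericytes, 15.7% in rods and 16.8% in smooth muscle. Cryab, Crym and Crybb3 were the only members with enough counts, in 11 pairs of member and class, and 5 pairs were called: Cryab higher in bipolar cells, pericytes and endothelium, Crybb3 lower in endothelium and Crym lower in rods. For old against young the background was 12.6%, 12.1%, 9.93%, 8.41%, 15.6%, 17.3% and 18.3% in the same order of classes. There 4 of the 11 pairs were called, Cryab higher in bipolar cells and rods and Crybb3 lower in endothelium and the mixed class. The old-to-young intervals of Cryab in bipolar cells, 1.99 (0.815 to 5.15), and of Crybb3 in the mixed class, 0.654 (0.343 to 1.2), include 1, and the former was 0.487 on thinned cells. In Müller glia and smooth muscle no member was called at either age. The members called are above the background share in number, but 11 pairs from 3 genes, chosen for their levels in these data, are no test of it.

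The remaining members, Cryaa, Cryba1, Cryba2, Crybb2 and Crygs, are the lens genes of the list. Outside the crystallin-rich droplets and their cluster they summed to 8 UMIs in all young cells, 198 in adult cells and 6 in old cells, or 0.59, 13.6 and 0.459 CPM. The adult-to-young ratio was 23.1 (11.5 to 54.4). Cryaa had no UMI in the whole young or the whole old library, kept or not, and 15873 in the adult. Crygs had 1, 11100 and 1 UMIs, Crybb2 0, 10071 and 3, Cryba2 1, 1765 and 0, and Cryba1 8, 943 and 2. Nearly all counts of these genes thus came from the adult library.

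In the adult library the 5 genes were spread thinly over the 8 compared classes. Their sum ran from 8.55 CPM in bipolar cells to 24.9 in cones over the 8 classes, and B cell-like cells had 25.3 CPM from 8 UMIs. None of the 8 had a higher value than these immune cells, which should lack the genes and whose interval ran from 10.9 to 49.9. Barcodes with under 500 genes held 263.3 CPM of the 5 genes in the adult library, 2.82 in the young and none in the old. The part of free RNA in these counts was not tested. Cryaa, the only one of the 5 with enough UMIs (79) for a likeness over the 24 values, was nearest to mt-Nd6 (r = 0.60), Parp2 (0.60) and Lyrm7 (0.57), none of them close.

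Cryab counts were also set against those of these 5 genes, as a description. The value in the rich droplets is fixed in part by their choice, which used 4 of the 5 genes. Each UMI of the 5 genes was accompanied by 2.06 (2.03 to 2.09) Cryab UMIs in the crystallin-rich droplets and by 1.08 (0.923 to 1.26) in adult barcodes under 500 genes. The figure was 1.94 (1.27 to 3.01) in adult endothelium, 1.53 (0.799 to 3) in cones and 3.33 (1.71 to 6.98) in bipolar cells. It was 5.29 (3.13 to 9.49) in rods, 7.27 (5.31 to 10.2) in the mixed class, 14.8 (7.25 to 35) in pericytes, 18.7 (8.83 to 47.5) in smooth muscle and 77.8 (55 to 114.1) in Müller glia. Other adult droplets of the lens gene cluster, kept apart by the same choice, had 4.16 (3.94 to 4.39). There single droplets held 1522, 2461 and 1844 of the 6993 Cryab UMIs, a spread the interval does not cover. Müller glia lay apart from the other classes, most of which overlapped their neighbours.

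The starts of the lens genes are shown because these members were counted together in the droplets described next, and a short motif recurs in them. RefSeq promoters on GRCm38.p6, 250 bases before to 50 after the gene start, were found for 6 of the 8 members. The letters TGCTGA or their reverse TCAGCA, the core of the site bound by large Maf proteins, which drive crystallin genes in the lens, are in capitals. Of the 6 promoters, 5 held them, against 19.5% of 32851 promoters. TATAAA, read on both strands, was in 3 of 6 against 13.6%, and the letters GAANNTTC of a heat shock element in 0 of 6 against 7.86%. No MAF and TATAAA matches shared bases in any of the 6. A match is only a run of letters. Cryaa is shown from chr17:31677681-31677980 on the plus strand, and the rest from the minus strand: Crygs from chr16:22811361-22811660, Crybb3 from chr5:113081535-113081834, and Crybb2, with no match, from chr5:113070068-113070367.
Cryaa: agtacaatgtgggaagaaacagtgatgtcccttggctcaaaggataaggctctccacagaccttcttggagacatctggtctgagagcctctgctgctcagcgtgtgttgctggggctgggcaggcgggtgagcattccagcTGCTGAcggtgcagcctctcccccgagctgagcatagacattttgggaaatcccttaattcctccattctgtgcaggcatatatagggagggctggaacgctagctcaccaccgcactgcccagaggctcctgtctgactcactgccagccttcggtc
Crygs: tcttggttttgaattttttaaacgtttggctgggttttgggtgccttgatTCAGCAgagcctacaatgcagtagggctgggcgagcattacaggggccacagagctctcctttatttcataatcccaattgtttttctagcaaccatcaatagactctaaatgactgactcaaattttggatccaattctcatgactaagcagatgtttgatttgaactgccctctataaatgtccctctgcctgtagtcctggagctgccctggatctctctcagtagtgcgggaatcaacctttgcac
Crybb3: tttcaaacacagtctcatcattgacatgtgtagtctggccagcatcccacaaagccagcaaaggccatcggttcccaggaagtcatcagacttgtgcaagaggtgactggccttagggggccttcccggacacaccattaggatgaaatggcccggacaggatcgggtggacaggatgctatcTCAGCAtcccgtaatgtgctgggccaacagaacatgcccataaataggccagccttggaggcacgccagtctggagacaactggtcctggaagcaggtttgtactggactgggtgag
Crybb2: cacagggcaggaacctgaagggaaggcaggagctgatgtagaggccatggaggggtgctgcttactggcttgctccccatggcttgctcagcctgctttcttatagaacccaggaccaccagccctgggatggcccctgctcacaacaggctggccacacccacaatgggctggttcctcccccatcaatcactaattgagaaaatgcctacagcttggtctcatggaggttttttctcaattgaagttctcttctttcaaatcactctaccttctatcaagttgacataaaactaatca
Crybb2 and Crybb3 are neighbours on the same strand, 5721 bases apart, and yet Crybb3 alone was counted in young and old cells beyond 3 UMIs. Crybb2 holds the pseudogene Gm43247 on the opposite strand, Cryaa lies within the antisense gene AC090881.2, and Cryba1 lies within Nufip2, so their counts are uncertain to the extent that strand was not used. With Cryaa at 0 in both the young and the old library, an antisense share is not seen there.

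Crystallin-rich droplets were defined as kept barcodes with at least 1% of their UMIs, and at least 10 UMIs, from the 5 beta and gamma members. There were 27 in the adult library, 1.38% of 1957 kept cells (0.911 to 2). None was found among 1706 young and 1697 old cells, with upper limits of 0.216% and 0.217%. The droplets just inside the limit had 1.07% and 1.23% and those just outside 0.722% and 0.706%. A cluster led by lens genes held 26 of the 27. With it and the rich droplets set aside, no kept cell of any library passed 0.202% or 3 such UMIs. The droplets were large, with a median of 25281 UMIs (3046 to 44173) and 4364 genes (500 to 5690), and a mitochondrial share of 4.86% (1.96 to 16.6). They held 84.1% of all adult Cryab UMIs and 92.8% of those of the 5 lens genes when 4 further barcodes outside the limits on cells were included.

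**Figure D3:**
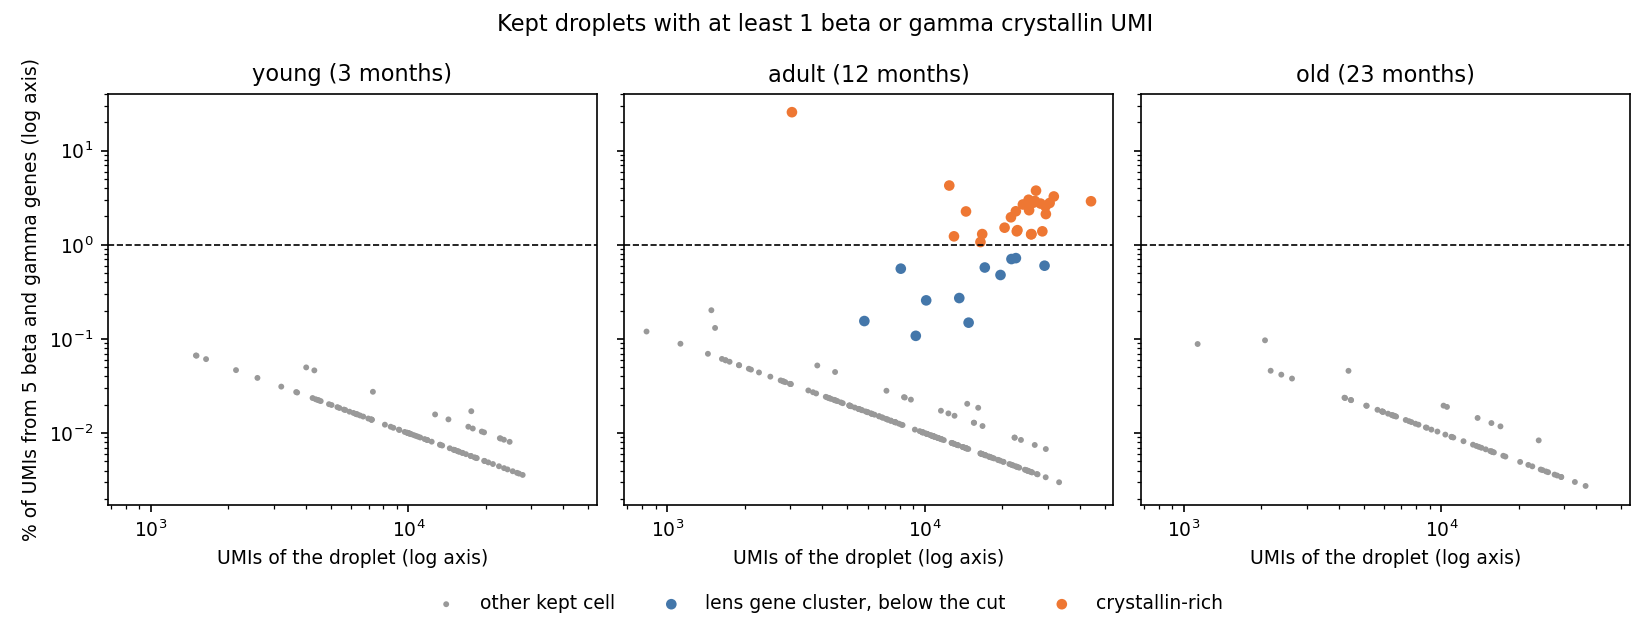
Percentage of UMIs from the 5 beta and gamma crystallins against UMIs per kept droplet (log axis) in the 3 libraries; the dashed line marks 1%. The adult library alone has droplets above the line, 27 of them, with up to 25.6%.

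Within the droplets alpha crystallin prevailed. Cryab stood at 75362.5 CPM and Cryaa at 12931.6, while Crygs was at 13902, Crybb2 at 8902.9, Crybb3 at 815.7, Cryba2 at 486 and Cryba1 at 332.9. Crym, so abundant in Müller glia, gave 0 UMIs of 639907. Over all 7 lens members the share of a droplet's UMIs was 11.6% at the median (2.26 to 52.6). Being high for beta and gamma members is how the droplets were chosen, so these levels carry no test, and the count of 7 of 8 members at least 1.5-fold higher than in other adult cells, beside 10.3% of all genes, says nothing further.

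The leading member was nearly constant from droplet to droplet, and the next varied. Cryab led in 25 of the 27 and Cryaa in 2. The second place was taken by Crygs in 14, Cryaa in 8, Crybb2 in 4 and Cryab in 1. Per droplet Cryab had a median of 1806 UMIs (63 to 3264), Crygs 275 (24 to 877), Crybb2 199 (18 to 392) and Cryaa 195 (27 to 870). These 4 were found in every droplet. Crybb3 was found in 26 with a median of 10 UMIs, Cryba2 in 21 with a median of 3 and Cryba1 in 19 with a median of 2. The acidic beta members were unevenly held: 365 of the 524 Cryba1 and Cryba2 UMIs came from 2 droplets.

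One of these 2 stood apart from the rest. It was the smallest, with 3046 UMIs and 500 genes, and the only one outside the common cluster, in an unnamed cluster of low UMI count. It held 437 Cryaa, 383 Cryab, 378 Crybb2, 174 Cryba2, 113 Cryba1, 98 Crygs and 18 Crybb3 UMIs, so that crystallins made up 52.6% of it. The droplet with the highest mitochondrial share, 16.6%, held 63 Cryab UMIs against 187 of Cryaa and 140 of Crybb2. These were the droplets in which Cryaa exceeded Cryab.

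**Figure D4:**
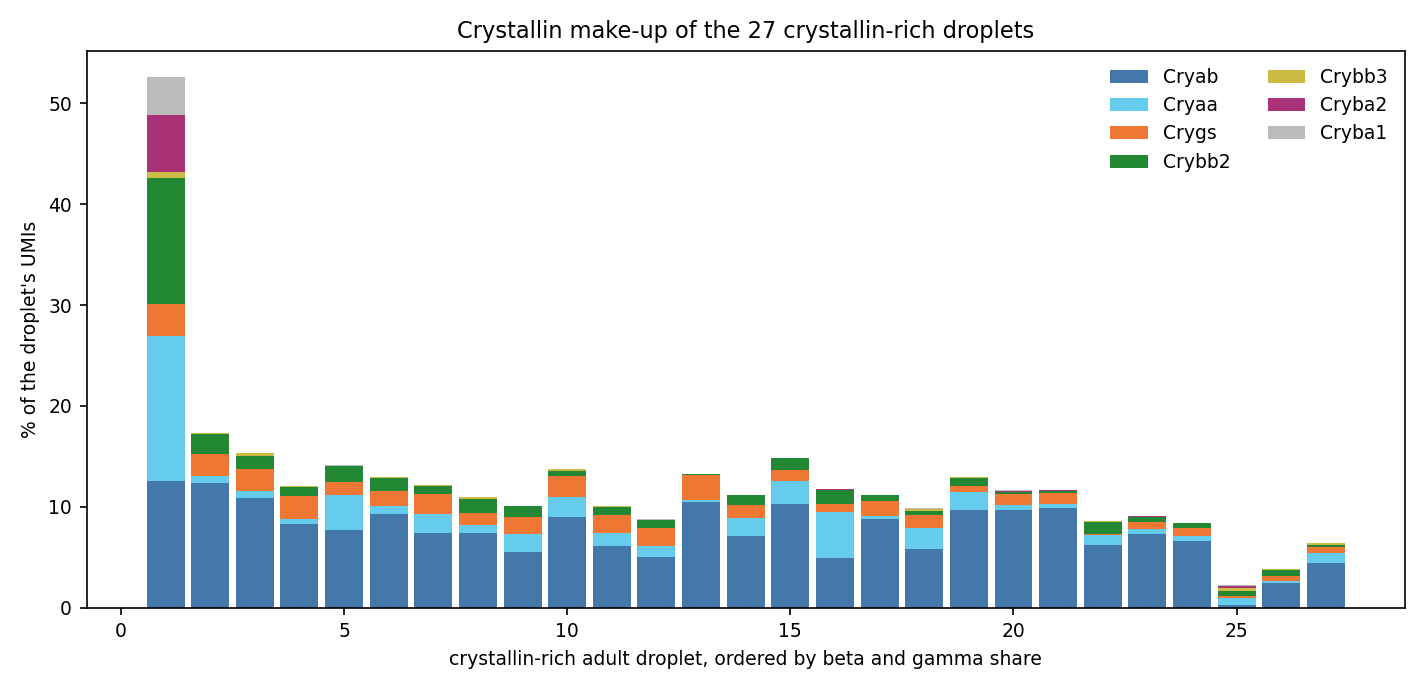
Make-up of the 27 crystallin-rich droplets, 1 stacked bar each, as the percentage of the droplet's UMIs from each member. Cryab forms the largest segment in 25 bars, and the leftmost bar reaches 52.6% with Cryaa, Cryab and Crybb2 in near-equal parts.

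In the same cluster 11 further adult droplets lay under the limit. They held a median of 14784 UMIs and from 11 to 2461 Cryab UMIs, with 4.16 (3.94 to 4.39) Cryab UMIs per UMI of the 5 lens genes, against 2.06 in the rich droplets. Cryaa made up 57.8% of the 5 genes there and 35.4% in the rich droplets, where Crygs had 38%. The limit was set on beta and gamma members, which are all of the 5 genes but Cryaa. Both contrasts are therefore fixed in part by the split. They also rest on few droplets: single ones held 351 and 439 of the 971 Cryaa UMIs, and 1522, 2461 and 1844 of the 6993 Cryab UMIs. Adult barcodes under 500 genes resembled neither exactly: in these Cryaa made up 43.4%, Crybb2 28.4% and Crygs 22.2%.

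Further lens transcripts accompanied the crystallins in the rich droplets. Of 19 listed lens fibre markers 11 had UMIs, summing to 3681.8 CPM against 10.5 in other adult cells. Grifin, a galectin-related lens protein, had 1314 UMIs, the connexin gene Gja3 187, the beaded filament genes Bfsp2 and Bfsp1 232 and 195, and Mip, the lens aquaporin, 87. Birc7, Dnase2b and Cryga to Crygf were at 0. Dnase2b encodes the enzyme that degrades fibre cell DNA, and the Cryga to Crygf cluster encodes the main gamma crystallins of fibres, so several defining fibre genes were absent. Foxe3 and Pitx3, transcription factors of the lens epithelium, had 11 and 19 UMIs.

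Most marker lists of retinal cells were lower in the droplets than in other adult cells, with exceptions. Endothelial markers summed to 75 CPM against 5726.1 in other adult cells, with Cdh5, Tie1, Robo4 and Vwf at 0, and rod markers to 46.9 against 4145.4. Müller markers reached 689.2 CPM against 3004.8, but 387 of 441 UMIs were Dkk3, with Slc1a3 and Kcnj10 at 0. Amacrine markers were higher in the droplets, at 153.1 CPM against 24.4, with 97 of 98 UMIs from Tfap2a, and astrocyte markers were at 40.6 against 33.9. Bipolar markers summed to 276.6 CPM against 1144.3, and a single droplet held 4594.6. Beyond the members, the genes of highest ratio to other adult cells included Aldh3a1, an aldehyde dehydrogenase abundant in the cornea, at 3264.5-fold (1819.5 to 6553), R3hdml at 2054.6-fold, the Wnt pathway genes Rspo1 and Wnt7b, and the epithelial keratins Krt15 and Krt19. Gja3 had 187 UMIs in the droplets and 1 elsewhere, a ratio of 4239.4 (751.6 to 168329.6), and BC048679 was at least 717.9-fold higher. Transcripts of the lens were thus joined by keratins, and no cell type name is given to the droplets.

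Relatives of the members outside the list were sparse in ordinary cells. None of the 9 other lens crystallins reached 50 UMIs in a compared class. Crybb1, a beta crystallin, was at 7.81, 10.6 and 8.25 CPM in Müller glia, from 13, 21 and 13 UMIs, and Crygn at 6.61, 2.52 and 0.635 from 11, 5 and 1. Transcription factors of crystallin genes were called in 1 of 20 pairs of gene and class for adult and 7 of 20 for old, against 5.4% to 16.8% and 8.41% to 18.3% of all genes over the 8 classes. Among them Mafg, a small Maf protein, was past the fold upward in the old library in Müller glia, at 24, 28.7 and 36.8 CPM, and in pericytes, at 31.6, 44.6 and 78.2. Calls also fell on Hsf1, a heat shock factor, at 0.559 (0.22 to 1.33) in old Müller glia and on Hsf4, a lens heat shock factor, at 1.58 (0.825 to 3.08) in the old mixed class, both with intervals that include 1.

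In the other lists the calls fell on single genes, and over the 8 classes 5.4% to 16.8% of all genes were called for adult against young and 8.41% to 18.3% for old against young. Crystallin-like genes, enzymes and proteins named for their likeness to lens crystallins, were called in 2 of 22 and 5 of 22 pairs. Cryzl1 in adult cones had a ratio of 1.98 (1.17 to 3.48), where 12.2% of all genes were called, and Crybg1 in old endothelium one of 1.67 (1.24 to 2.26). Cryl1 in the old mixed class had 1.65 (1.03 to 2.64). The other calls of the list had intervals that include 1: Cryl1 in adult endothelium at 0.645, Cryzl1 in old cones, with 15.8% of all genes called, at 1.56 and in old smooth muscle at 1.58, and Cryz in the old mixed class at 1.56.

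Small heat shock proteins were called in 2 of 17 and 4 of 17 pairs, beside the same 5.4% to 16.8% and 8.41% to 18.3% of all genes. Hspb2 in adult Müller glia had a ratio of 2.52 (1.28 to 5.31), Hspb8 in old endothelium 1.83 (1.32 to 2.56), Hspb6 in adult rods 1.56 (1.04 to 2.41) and Hspb6 in old bipolar cells 1.65 (1.02 to 2.72). The intervals of Hspb2 in old Müller glia, 1.67 (0.771 to 3.78), and of Hspb7 in old smooth muscle, 1.84 (0.944 to 3.75), include 1. Genes of thyroid hormone handling were called in 2 of 22 pairs at each age. Among them Thra stood at 1.64 (1.03 to 2.71) in adult rods and at 0.571 (0.318 to 1) in old cones, and Slco1c1 at 1.5 (0.953 to 2.37) in old pericytes.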

How the data were processed

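The authors deposited UMI counts for each gene and barcode, not normalised, from Cell Ranger 6.1.2 on mm10, per the labels. Their cell calling and strand settings are not given in the sources used here. Barcodes with 500 to 6000 genes and 1 to 20% mitochondrial UMIs were kept, the limits of the study, and droplets marked by Scrublet (scanpy 1.11.5) were left out: 7 young (0.409%), 17 adult and 16 old. Cells were integrated and clustered in Seurat 5.3.0 (R 4.3.3; 2000 features, 30 components, resolution 0.5), with the members and lens fibre markers kept out of the features. Clusters were named from marker lists when 3 markers were detected in at least 20% of cells and at 25% or more of the highest cluster's level. UMIs were summed by class and library (Python 3.11.15, numpy 2.4.6, scipy 1.17.1, pandas 2.3.3). Sums carry exact 95% Poisson intervals, ratios exact conditional intervals and shares Clopper-Pearson intervals. A count of 0 was set at a floor of 3 counts. With 1 library per age no test was run. All members are named; beside them stand, for each member with at least 50 UMIs, the 3 most correlated genes, the 15 genes of highest ratio in the droplets, and related genes past the fold. The ratio and interval calculations were tested on simulated data. The members and lists were chosen with earlier results of these data known. Positions are from GENCODE on GRCm38. Some genes of the lists are not reported here.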

Additional observations from a re-analysis of the deposited data

Results flagged for a closer look

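Classes too small to be compared also held crystallin UMIs in the young and old libraries, where barcodes under 500 genes held almost no lens gene UMIs. In retinal pigment epithelium, 54 cells of which 53 came from the old library, Cryab was at 823.1 CPM (718.8 to 938.3) from 224 UMIs, below the 1383.1 CPM of old Müller glia. Crym was at 22 CPM (8.09 to 48) from 6 UMIs in the same cells, under the 31.1 CPM of old barcodes with under 500 genes, and Crygn, a crystallin with features of both the beta and gamma families, was likewise at 22 CPM from 6 UMIs. The cluster named microglia met 4 of 6 markers. S100a9, Lyz2, S100a8 and Ccl5 were among its leading genes beside C1qa, C1qb and C1qc, so the name may not hold for every cell. In 23 cells of it from both libraries Crybb1 was at 49.4 CPM (22.6 to 93.8) from 9 UMIs. Cryba4, its neighbour in the genome, was at 22 CPM (5.98 to 56.2) from 4 UMIs. These values were picked out because they lie in cells outside the comparisons and above what a count of 0 allows. No age comparison can be made of them.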

How the results depend on the processing

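Alpha crystallin in Müller glia (1.24 adult to young, 1.36 old to young) kept its direction under all 11 alternatives, between 1.17 and 1.54 and between 1.16 and 1.46. The values that moved beyond counting error were 1.54 with classes from each cell's own markers for adult, and for old 1.16 on thinned cells, 1.2 with equal weights and 1.46 with free RNA subtracted. Summed beta and gamma members in endothelium (0.927 and 0.58) were at 1.47 and 0.977 on thinned cells, so neither value was kept at equal depth. The adult share of crystallin-rich droplets, 1.38%, was 0.869% at a limit of 2%. Cryab in endothelium, 2.53 adult to young, turned to 0.935 with free RNA subtracted, and Cryab in bipolar cells, 1.99 old to young, turned to 0.487 on thinned cells. The cause was not tested for any of these. These 2 are the ratios past 1.5-fold that crossed 1. Among smaller ratios, the beta and gamma sum in adult endothelium kept its direction in 8 of 11 alternatives, Crym in old rods in 7 of 11, Cryab in old endothelium in 9 of 11, Crym in adult Müller glia in 10 of 11, Cryab in old Müller glia in 14 of 15 and Cryab in the old mixed class in 8 of 9. Beside the 2, 28 of 267 ratios, some of these included, and 34 of 231 levels left the counting interval of the main value. The splits of Müller glia by depth and by cluster were added after seeing the data. No paired analysis was possible because each age has 1 library, and for the same reason no replicate could be left out. The lens members rest on few UMIs in ordinary cells (8 young, 6 old), so no ratio between these is given.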
